A study of Mus musculus with 6 samples.

Results

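The genes described here are 9 solute carriers that move sugars, small peptides and amino acids across the absorptive epithelium of the gut: Slc5a1, Slc2a2, Slc2a5, Slc15a1, Slc6a19, Slc7a9, Slc3a1, Slc7a7 and Slc7a8. They were taken by symbol, and all 9 were present among the 55335 genes counted in each of the 6 libraries. The study profiled mouse intestinal organoids, which are epithelial cultures grown in a matrix, by droplet-based 3′ single-cell RNA sequencing with unique molecular identifiers (UMIs). The organoids came from wild-type C57BL/6 mice aged 8 weeks and were grown from single cells. The day-4 samples (96 hours after treatment) were single libraries, of organoids given DMSO vehicle, 5 µM of an RXR antagonist, 10 µM all-trans retinoic acid, or medium without vitamin A. At day 1 (24 hours) there were 2 libraries of vehicle organoids. All groups were cultured with EGF, Noggin and R-spondin, and up to day 3 also with Wnt3a-conditioned medium, a GSK3 inhibitor and a ROCK inhibitor. Whether the vitamin A-free organoids also received DMSO is not given in the sources used here, nor is the division of the 2 donor mice among the libraries. RXR is the shared partner of many nuclear receptors, among them the retinoic acid receptors.

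Absorptive cells of the small intestine take up nutrients at the apical brush border and release them to the blood at the basolateral side. The sodium-glucose cotransporter SGLT1 (Slc5a1) brings in glucose and galactose with sodium, GLUT5 (Slc2a5) brings in fructose, and GLUT2 (Slc2a2) lets these sugars leave. PEPT1 (Slc15a1) takes up di- and tripeptides with protons, and B0AT1 (Slc6a19) takes up neutral amino acids. The light chain Slc7a9 pairs with the heavy chain Slc3a1 to import cystine and basic amino acids, while the light chains Slc7a7 and Slc7a8 pair with the heavy chain Slc3a2 for export of basic amino acids and exchange of neutral ones on the basolateral side. In the intestine these genes are known as features of differentiating and mature enterocytes.

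Since most of these genes had the same order of levels across the treatments (values below), the 250 bases before the RefSeq start of each gene (GRCm38.p6) were searched on both strands for 4 sets of letters that resemble factor sites. These were AGGTCA (the core letters of nuclear receptor elements), GTTAAT (HNF1-type), CAAAGTCCA (HNF4-type core) and TTTATG (CDX-type). The search also covered the 50 bases after the start. The upstream stretches of Slc2a2 (chr3:28697653-28697902, plus strand) and Slc3a1 (chr17:85028097-85028346, plus strand) are shown 5′ to 3′ because each held a match before the start, in capitals.
Slc2a2: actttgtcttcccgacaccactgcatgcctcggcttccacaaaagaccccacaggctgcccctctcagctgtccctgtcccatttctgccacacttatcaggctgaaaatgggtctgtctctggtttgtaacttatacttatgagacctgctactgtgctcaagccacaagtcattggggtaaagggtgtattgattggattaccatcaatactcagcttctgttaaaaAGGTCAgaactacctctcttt
Slc3a1: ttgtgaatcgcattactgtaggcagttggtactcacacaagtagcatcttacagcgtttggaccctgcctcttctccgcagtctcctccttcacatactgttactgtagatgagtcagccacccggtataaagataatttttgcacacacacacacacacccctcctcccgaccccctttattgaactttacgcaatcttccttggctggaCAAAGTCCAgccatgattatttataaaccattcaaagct
The Slc2a2 stretch held AGGTCA from base -21, and the Slc3a1 stretch held CAAAGTCCA from base -39. Slc7a9 had AGGTCA on the opposite strand, in a window that lies inside the GENCODE model of the gene and is not shown. Of the 9 genes, 3 (Slc2a2, Slc7a9 and Slc7a7) had AGGTCA in at least 1 listed window, against 16.3% of all 32851 windows of this length in the table. GTTAAT was found for 2 of 9 genes, Slc3a1 and Slc7a7 (7.10% of all windows), CAAAGTCCA for 1 (0.475%), and TTTATG for 0 (11.9%). The GTTAAT of Slc3a1 was on the opposite strand at bases 2 to 7 after the start, outside the stretch shown. Genes with several listed starts had more than 1 window, and Slc7a7 had 5. Its AGGTCA was in window 4 and its GTTAAT in window 5, both before the start of their window, and neither window is shown. A match of letters is a description of the window and not a measured site.

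After filtering and removal of likely doublets, 3468 to 5327 cells per library were kept, with 47254884 to 62512096 UMIs in each. The median cell had 9957 to 13393 UMIs, and 1.84% to 4.40% of them were mitochondrial. The 10 most abundant genes took 17.1% of all UMIs in the retinoic acid library and 6.71% to 9.96% in the others. Pairs of libraries shared 2 to 17 cell barcodes. The enterocyte identity of the cultures was checked with 14 marker genes. Their summed level was 38656 CPM (UMIs per 1000000 UMIs of the library) in day-4 vehicle, 6945 with the RXR antagonist, 105845 with retinoic acid, 25315 without vitamin A, and 6933 and 11518 in the day-1 libraries. Markers of regenerating epithelium (11 genes) were summed at 11110 CPM with the RXR antagonist and at 123 CPM in day-4 vehicle. They were at 218 CPM with retinoic acid, 221 without vitamin A, and 2306 and 2859 in the day-1 vehicle libraries. Red blood cell genes were at 0 everywhere, and summed immune, fibroblast and endothelial markers were at most 28.8 CPM in any library.

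Levels of genes are likewise in CPM, over all kept cells. Intervals are 95% and cover counting error only. They say nothing about variation between cultures, which single libraries cannot show, and comparisons within day 4 are therefore given without a test. A gene was called different when its log2 ratio, after adding 5 CPM to both sides, reached 2-fold, provided that 1 of the groups had it at 10 CPM or above. Fold values of single genes come from the CPM themselves. Over whole libraries, fewer cells of a type and less RNA per cell cannot be told apart. All comparisons with day-4 vehicle use the same vehicle library.

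Of the sugar carriers, Slc5a1 was at 691 CPM in day-4 vehicle, 31.0 with the RXR antagonist, 1002 with retinoic acid and 481 without vitamin A, and at 82.3 and 127 in the day-1 libraries. The facilitative carrier Slc2a2 was at 172, 0.317, 310 and 103 CPM in the same day-4 order, and at 32.1 and 86.9 at day 1. The fructose carrier Slc2a5 was at 79.9, 0.148, 117 and 48.7 CPM at day 4, and at 2.22 and 6.81 at day 1. For all 3 sugar carriers the retinoic acid library was the highest, vehicle and vitamin A-free followed, and the RXR antagonist library was below both day-1 libraries.

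The peptide carrier Slc15a1 was the least counted of the 9, at 3.02 CPM in day-4 vehicle, 0.106 with the RXR antagonist (5 UMIs), 14.7 with retinoic acid and 2.95 without vitamin A, and at 0.320 and 1.25 at day 1. Only the retinoic acid library passed 10 CPM for it. The neutral amino acid carrier Slc6a19 was at 45.6, 0.233, 58.3 and 32.8 CPM at day 4 and at 4.58 and 10.7 at day 1. The cystine carrier Slc7a9 was at 109.7, 0.508, 150 and 73.4 CPM at day 4 and at 39.8 and 65.1 at day 1. Its heavy chain Slc3a1 was at 65.3, 9.33, 113 and 49.2 CPM at day 4 and at 17.9 and 25.3 at day 1. These 4 genes had the same order of treatments as the sugar carriers, although vehicle and vitamin A-free did not differ beyond counting error for Slc15a1.

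The basolateral light chain Slc7a7 had the narrowest range. It was at 112 CPM in day-4 vehicle, 86.6 with the RXR antagonist, 174 with retinoic acid and 84.4 without vitamin A, and at 65.0 and 83.7 at day 1. It was the only one of the 9 whose level under the RXR antagonist was not below both day-1 libraries. The other basolateral light chain, Slc7a8, was at 31.1, 1.08, 37.2 and 25.9 CPM at day 4 and at 14.3 and 14.1 at day 1. Their common heavy chain Slc3a2 was at 161, 196, 229 and 151 CPM at day 4 and at 114 and 118 at day 1, so it was not lower with the RXR antagonist than in vehicle. Cltrn, the partner of B0AT1 in the kidney, did not exceed 0.590 CPM in any library.

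**Figure D1:**
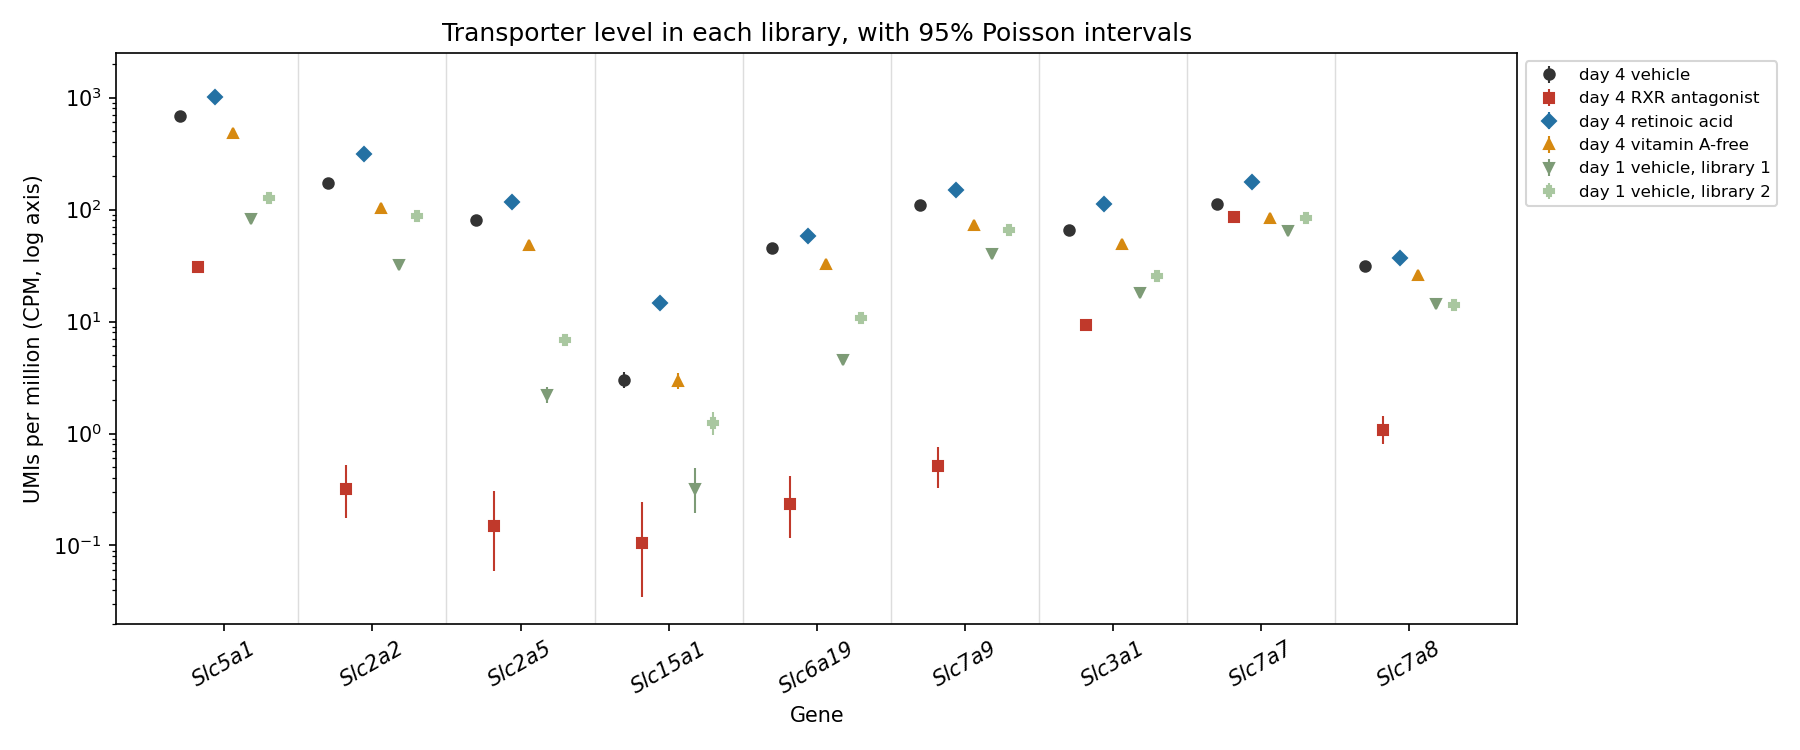
Level of each of the 9 transporter genes in each of the 6 libraries, in CPM on a log axis, with 95% Poisson intervals for counting error. The RXR antagonist library is the lowest for every gene except Slc7a7, where it is at 86.6 CPM against 112 in vehicle; for Slc15a1 its interval overlaps that of the first day-1 library.

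Some gene models overlap others. In the GENCODE M21 annotation of GRCm38, Slc7a7 (chr14:54369442-54417780, minus strand) shares its last 232 bases with the end of Oxa1l on the opposite strand, and Slc3a1 (chr17:85028376-85064236, plus strand) shares 767 bases with Prepl. Whether the counting used strand is not given in the sources used here, so UMIs in the shared stretches are uncertain between the genes. Oxa1l was at 92.0 CPM in vehicle, 72.9 with the RXR antagonist, 57.5 with retinoic acid, 96.9 without vitamin A, and 67.0 and 62.6 at day 1. Oxa1l was lower with retinoic acid than in day-4 vehicle, whereas Slc7a7 was higher. With the RXR antagonist both genes were below vehicle (Slc7a7 at 86.6 against 112 CPM), as they were at day 1. Without vitamin A, Oxa1l was above vehicle and Slc7a7 below it. The part of the shared stretch in the Slc7a7 levels was not tested. Prepl did not exceed 16.1 CPM. Slc6a19 overlaps an antisense gene at no more than 1.02 CPM, Slc2a2 one at no more than 0.219 CPM, and Slc5a1 contains 2 pseudogenes at no more than 0.420 CPM.

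The first comparison asked what blocking RXR did by day 4. All 9 transporters were lower with the antagonist than in vehicle. Slc2a2 was 541-fold lower (328 to 967), Slc2a5 539-fold (261 to 1342), Slc7a9 216-fold (145 to 338) and Slc6a19 196-fold (109 to 393). Slc7a8 was 28.8-fold lower (21.8 to 38.9), Slc5a1 22.3-fold (21.2 to 23.5), and Slc3a1 6.996-fold (6.33 to 7.74). Slc7a7 was 1.29-fold lower (1.24 to 1.34), well short of the 2-fold call. Slc15a1 was 28.5-fold lower (11.97 to 89.2) but was under 10 CPM on both sides.

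Of the 8 transporters at 10 CPM or more, 7 were called lower and 0 higher, where 8.39% of all 8388 such genes were called lower and 6.91% higher. Apart from Slc5a1, these 7 were at 10 CPM or more only in vehicle. The median log2 ratio of the 8 was -3.66, against 0.01 over all genes. The RXR antagonist library also had a lower summed enterocyte marker level, with 7 of 14 markers at 10 CPM or more and Apoc3 at 0. The enterocyte marker Krt20 went the other way, at 296 CPM against 183 in vehicle. All 11 of 11 regenerative markers were at 10 CPM or more. The part of the marker change in the transporter result was not tested.

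Among related genes, those of digestion and sugar use were mostly lower with the antagonist, while some other carriers were higher. All 11 brush-border digestive genes at 10 CPM or more were 2-fold lower. They included sucrase-isomaltase Sis, at 4.17 CPM against 1954 in vehicle, and the aminopeptidases Enpep (0.360 against 87.6) and Anpep (5.95 against 181). Of 8 fructose and glucose use genes, 7 were lower and 1 higher. Ketohexokinase Khk was at 27.7 against 981 CPM, and Fbp1 at 0.0846 against 69.0. The higher one was Txnip, named here after its value was seen. Of 3 other sugar carriers, Slc2a1 (GLUT1, the widely expressed glucose carrier) was at 413 against 81.5 CPM and Slc50a1 at 121 against 38.3, both higher, and Slc5a4b was at 0.910 against 19.6, lower. Of 12 other amino acid carriers, 3 were higher and 3 lower. Slc7a11, the cystine-glutamate exchanger, was at 111 against 6.42 CPM, Slc6a20a at 0.487 against 19.0, and Slc43a2 at 1.78 against 21.3. Of 10 genes of ion transport, 3 were lower, among them the sodium-proton exchanger Slc9a3 (0.720 against 34.0 CPM) and the sodium pump subunit Atp1b1 (389 against 1384). The lysosomal histidine carrier Slc15a4 was at 14.4 against 12.4 CPM and was not called.

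The second comparison asked what added retinoic acid did. All 9 transporters were higher than in vehicle, most by less than 2-fold. Slc15a1 was 4.86-fold higher (4.09 to 5.81). The others were between 1.19-fold (1.12 to 1.28, Slc7a8) and 1.81-fold (1.76 to 1.85, Slc2a2), with Slc5a1 at 1.45-fold (1.43 to 1.47), Slc3a1 at 1.73-fold (1.66 to 1.80) and Slc7a7 at 1.56-fold (1.51 to 1.61). Thus 1 of 9 was called higher and 0 lower, against 2.79% higher and 5.22% lower among 7981 genes. The 1 called was Slc15a1, at 14.7 CPM with retinoic acid and 3.02 in vehicle. It entered the count only through the library where it was high.

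This count depended on how libraries were scaled. With total UMIs the median log2 ratio of all genes was -0.27, and that of the 9 transporters was 0.53. With TMM factors, which discount the few very abundant genes, the all-gene median was 0.08, 4 of 9 transporters were called higher (Slc2a2, Slc15a1, Slc3a1 and Slc7a7), and 5.46% of genes were called higher and 1.51% lower. With DESeq2 size factors these shares were 5.95% and 1.31%. All 9 transporters were higher under each scaling. The summed enterocyte marker level was 105845 CPM with retinoic acid and 38656 in vehicle, and its part in this result was not tested.

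Of 12 brush-border digestive genes, 5 were higher with retinoic acid, among them the metalloproteases Mep1b (531 against 132 CPM) and Mme (134 against 47.1) and the peptidase Naaladl1 (120 against 45.9). Of 3 partners and anchors, 2 were higher, among them the PDZ scaffold Pdzk1 (25.1 against 2.04 CPM). Among 5 other sugar carriers, Slc5a4b was at 163 against 19.6 CPM and Slc5a11 at 20.7 against 7.14, both higher, while Slc2a1 was at 19.1 against 81.5, lower. Among 10 other amino acid carriers, Slc6a20a was at 72.7 against 19.0 CPM, higher, and 3 were lower, including the glutamine carriers Slc1a5 (16.4 against 49.6) and Slc38a1 (30.8 against 74.7). Of 9 fructose and glucose use genes, glucose-6-phosphatase G6pc was higher (164 against 48.7 CPM) and Txnip lower (171 against 433). Of 9 ion transport genes, 0 were called. These list counts use total UMIs.

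The third comparison set medium without vitamin A against vehicle. Of 8 transporters at 10 CPM or more, 0 were called in either direction, where 0.196% of 8180 genes were called lower and 0.183% higher. All 8 were nevertheless below vehicle by more than counting error. Their ratio to vehicle ran from 0.599 (0.578 to 0.620) for Slc2a2 to 0.833 (0.773 to 0.898) for Slc7a8, with Slc5a1 at 0.695 (0.684 to 0.707). For Slc15a1 the ratio was 0.976 (0.771 to 1.23), with an interval that spans no difference. The summed enterocyte markers were at 25315 against 38656 CPM and the summed stem cell markers at 1536 against 849, and their part was not tested. Among related genes, 1 was called: G6pc, at 21.01 against 48.7 CPM. The heavy chain Slc3a2 (151 against 161 CPM) had a ratio nearer to 1 than those of Slc7a7 and Slc7a8.

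The fourth comparison set the RXR antagonist directly against retinoic acid, at the doses given. These are different compounds at different concentrations, so the values are only side by side. Of 9 transporters, 8 were 2-fold lower with the antagonist and 0 higher, against 9.18% lower and 13.3% higher of 8193 genes (12.5% and 8.63% with TMM factors). Apart from Slc5a1, these 8 were at 10 CPM or more only with retinoic acid. Slc2a2 was 977-fold lower (592 to 1746) and Slc5a1 32.4-fold (30.7 to 34.1). Slc7a7 had a log2 ratio of -0.97 and was not called, but with TMM factors it reached -1.31 and all 9 were called.

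**Figure D2:**
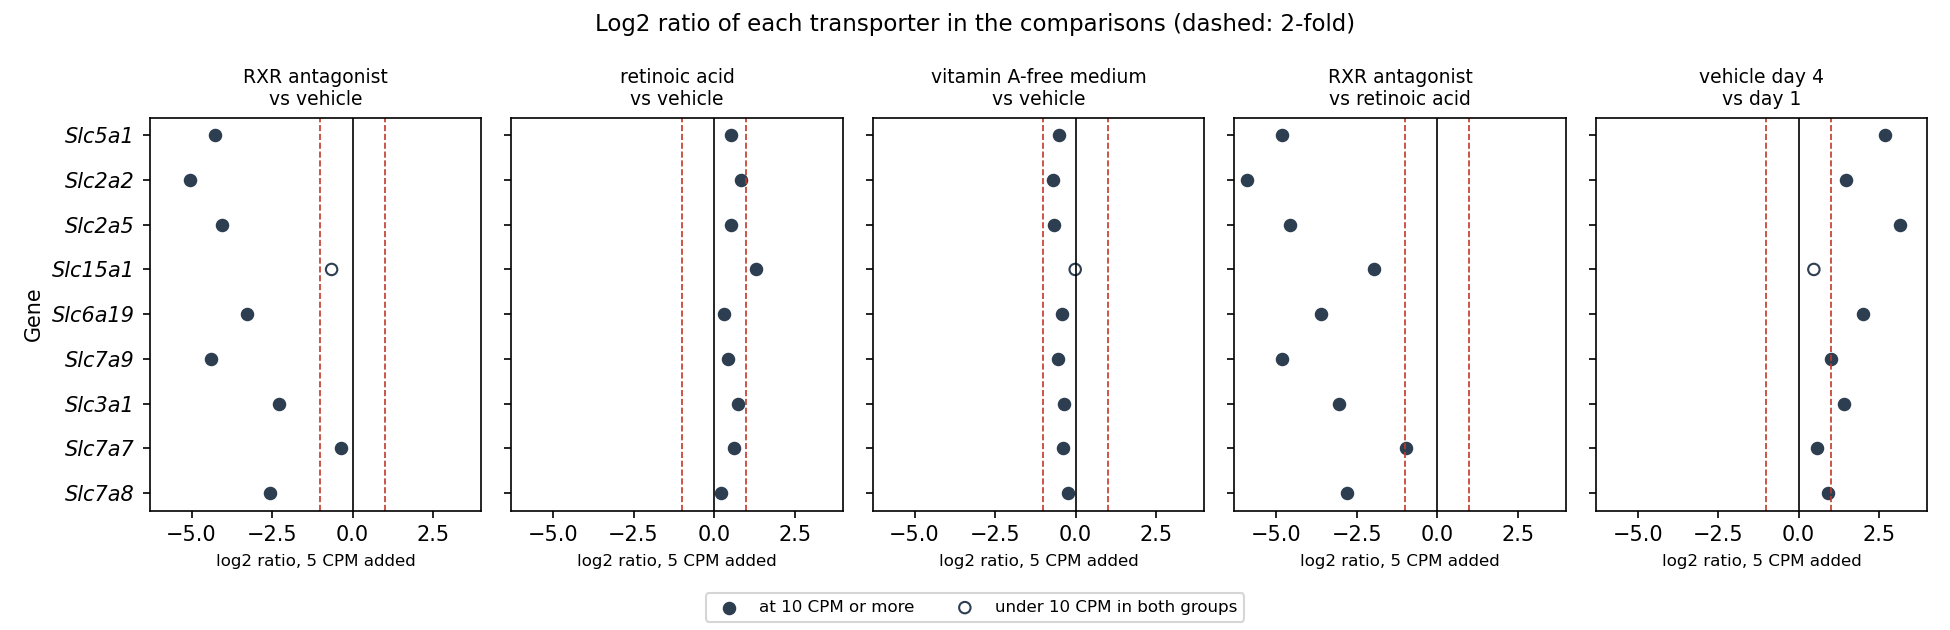
Log2 ratio of each transporter in the 5 comparisons, computed after adding 5 CPM to both sides and with dashed lines at 2-fold. Open points are genes under 10 CPM in both groups. Against vehicle, the RXR antagonist points lie at or beyond -2.29 except for Slc7a7 (-0.35) and the open point of Slc15a1 (-0.65). Against retinoic acid, Slc7a7 is at -0.97 and Slc15a1 at -1.95.

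The last comparison followed vehicle organoids from day 1 to day 4. Each transporter was higher at day 4 than in both day-1 libraries. Relative to both day-1 libraries pooled, Slc2a5 was 17.9-fold higher, Slc5a1 6.64-fold, Slc6a19 6.04-fold, Slc15a1 3.91-fold, Slc3a1 3.04-fold and Slc2a2 2.92-fold. Slc7a8 was 2.19-fold higher, Slc7a9 2.11-fold and Slc7a7 1.51-fold. Several folds depended on the day-1 library: against the first and the second alone, Slc2a5 was 35.9- and 11.7-fold higher, Slc6a19 9.98- and 4.27-fold, Slc15a1 9.44- and 2.42-fold, and Slc2a2 5.35- and 1.98-fold. By size, 5 of 8 were called higher and 0 lower (4 without the first day-1 library, 6 without the second), against 7.58% higher and 10.5% lower of 8617 genes (9.64% and 7% with TMM factors). These shares use both day-1 libraries, and none was computed with 1 left out. Of the 5, Slc2a5 was at 10 CPM or more only at day 4.

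This is the only comparison with more than 1 library in a group, and it was tested with edgeR's quasi-likelihood test with Benjamini-Hochberg adjustment over 17584 genes. The lone day-4 library is assumed to vary like the day-1 pair, whose separate origin is not stated. The p-values therefore rest on the spread within the day-1 pair, and the spread at day 4 was not estimated. Shares over all genes are given for this run only and were not computed for the alternative settings. Of the 9 transporters, 7 rose and 0 fell, where 16.8% of all genes rose and 16.3% fell. The edgeR adjusted p-values were 0.00304 for Slc5a1, 0.00582 for Slc2a5, 0.00903 for Slc6a19, 0.0245 for Slc7a9, 0.00537 for Slc3a1, 0.0304 for Slc7a7 and 0.00410 for Slc7a8. Slc2a2 (edgeR adjusted p = 0.0542) and Slc15a1 (0.0614) did not pass. With no filter on low counts 5 passed, without Slc7a9 (edgeR adjusted p = 0.0568) and Slc7a7 (0.0623), and with DESeq2 size factors in edgeR all 9 passed.

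Of the related genes, 13 of 14 brush-border digestive genes and 9 of 9 fructose and glucose use genes rose in the edgeR test, with none falling. Examples are Ggt1 (58.1 against a day-1 mean of 0.357 CPM), Treh (44.2 against 2.64), Enpep (87.6 against 9.84), G6pc (48.7 against 0.843) and Fbp1 (69.0 against 5.43). Other sugar carriers were mixed: of 12 tested, 7 rose and 2 fell, with Slc5a4b at 19.6 against 0.789 CPM, Slc2a1 at 81.5 against 40.3 and Slc50a1 at 38.3 against 102. Of 20 other amino acid carriers tested, 6 rose and 4 fell, with Slc6a20a at 19.0 against 0.736 CPM, Slc43a2 at 21.3 against 6.98 and Slc38a1 at 74.7 against 151. Of 11 ion transport genes, 4 rose and 2 fell, with Atp1b3 at 38.3 against 79.2 CPM among those that fell. Slc3a2 rose (edgeR adjusted p = 0.0211).

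Cells within each library were then ordered by the share of their UMIs that came from the 14 enterocyte markers and cut into 5 parts with equal numbers of cells, called bin 1 (fewest enterocyte UMIs) to bin 5 (most). Bins are ranges and not cell types, and the order rests on the same cells, so the values are a description. In day-4 vehicle, Slc2a2 was at 1.11, 5.72, 75.3, 240 and 481 CPM from bin 1 to bin 5, and Slc2a5 at 3.42, 9.78, 59.8, 121 and 186. Both were concentrated in the cells with the largest share of enterocyte marker UMIs. Slc5a1 appeared earlier, at 71.3, 204, 682, 1008 and 1381 CPM.

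Slc6a19 and Slc7a8 levelled off in vehicle. Slc6a19 was at 0.804, 14.8, 58.3, 75.6 and 74.8 CPM and Slc7a8 at 12.6, 25.1, 40.9, 41.4 and 35.5, so bin 5 was not above bin 4. The other amino acid carriers were higher in bin 5 than in bin 4 beyond counting error, Slc7a9 at 187 against 158 CPM, Slc3a1 at 110.0 against 87.7 and Slc7a7 at 169 against 145. Slc7a7 had the flattest profile after Slc7a8, from 34.9 CPM in bin 1 to 169 in bin 5. Altogether 7 of 9 transporters were highest in bin 5 in vehicle, all but Slc6a19 and Slc7a8, and 9 of 9 were so without vitamin A and in each day-1 library.

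Bins of the same number hold different shares of enterocyte marker UMIs in different libraries. These shares are not a measure of how many enterocytes a bin holds. Fabp1 alone made up 50128 of the 105845 CPM of summed markers with retinoic acid, and 21306 of 38656 in vehicle. The median share of enterocyte marker UMIs was 0.619% in bin 2 and 8.49% in bin 5 of vehicle, and 10.01% in bin 2 and 14.9% in bin 5 with retinoic acid. With retinoic acid Slc2a2 was at 50.9, 324, 380, 394 and 391 CPM and Slc2a5 at 28.1, 136, 138, 145 and 137. In bin 5 both were below vehicle (481 and 186 CPM), although the whole-library levels were higher. Bin levels use total UMIs. The TMM factor was 0.752 for the retinoic acid library and 0.992 for vehicle, and dividing by it raises retinoic acid levels relative to vehicle. The bin 5 order is therefore given for total UMIs only. Slc15a1 was at 1.61, 6.70, 13.1, 18.3 and 32.3 CPM with retinoic acid against 8.82 CPM in bin 5 of vehicle. With the RXR antagonist, Slc3a1 was at 0.211 CPM in bin 1 and 29.9 in bin 5, and Slc5a1 at 11.3 and 53.5. Slc7a7 was at 60.4 to 103 CPM there, above vehicle in bin 1 and below it in bin 5.

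**Figure D3:**
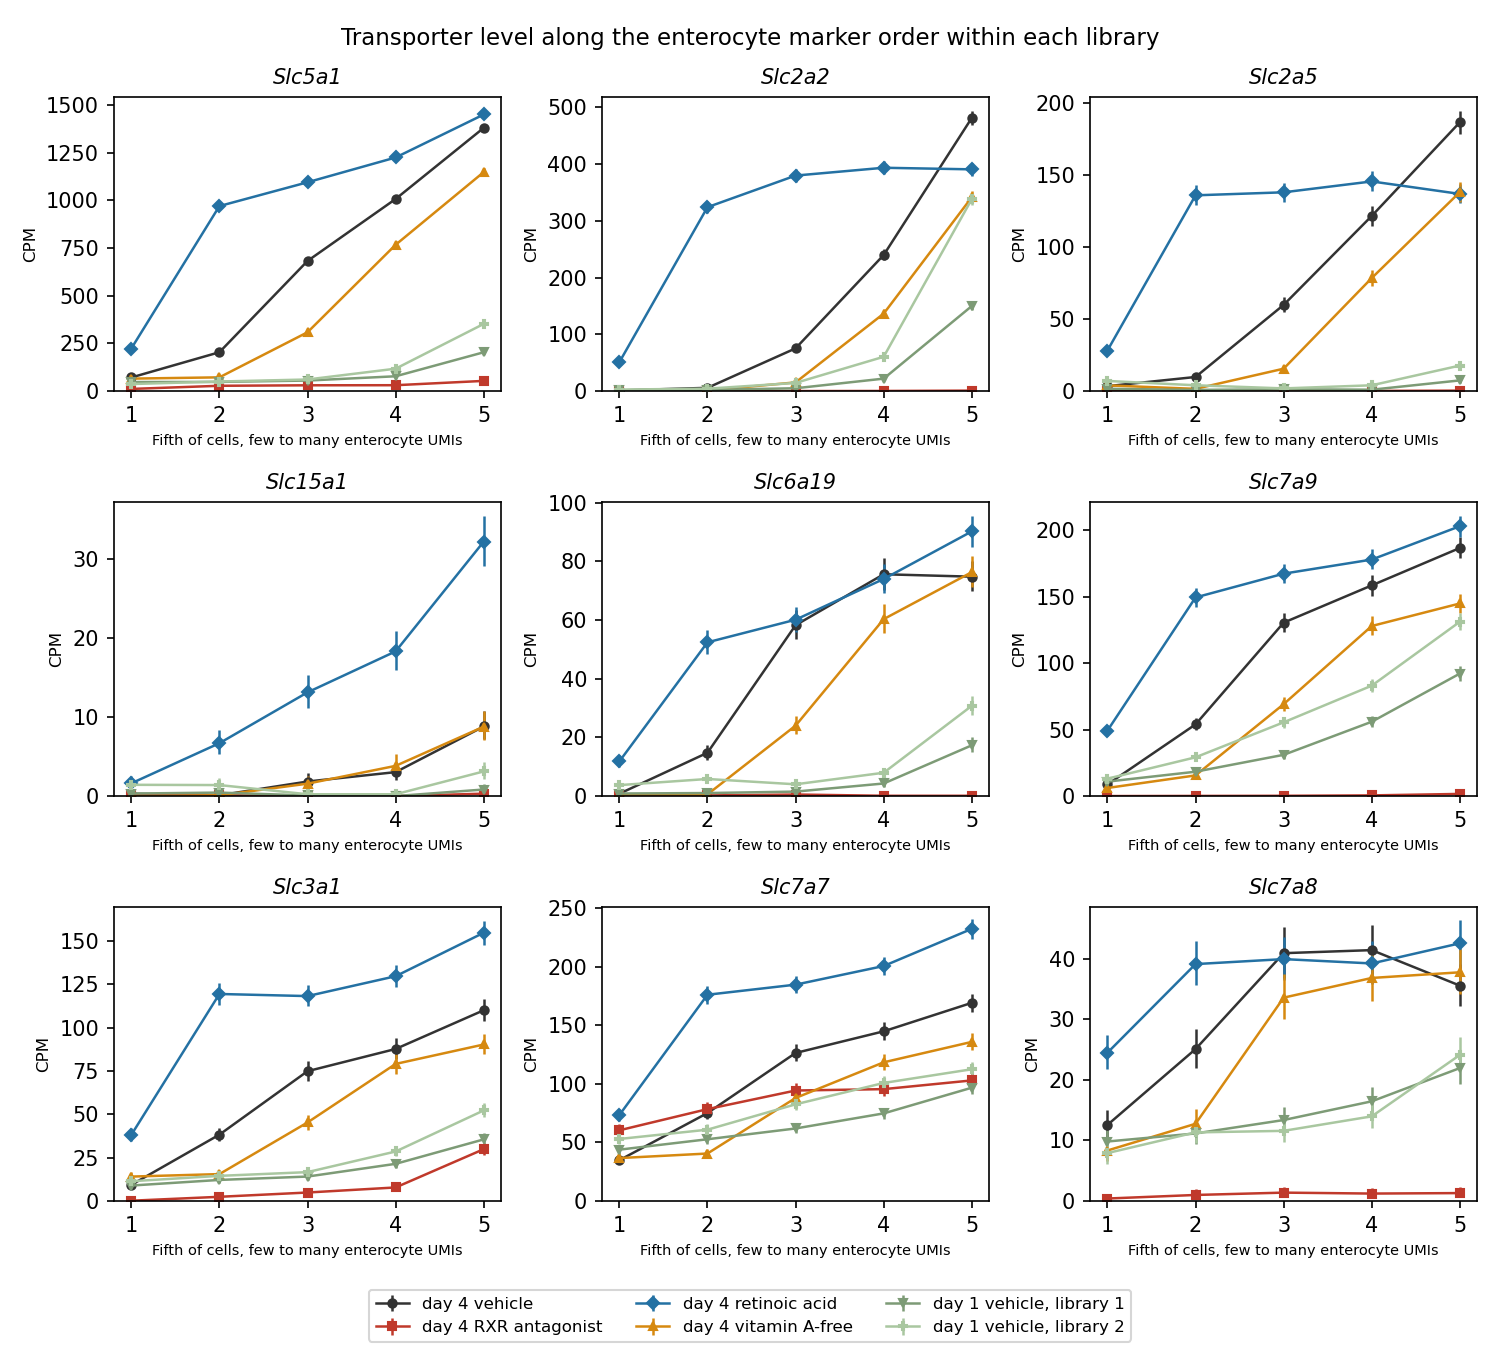
Level of each transporter in 5 equal parts of the cells of each library, ordered from few to many enterocyte marker UMIs, in CPM with 95% Poisson intervals. Bins of the same number differ in enterocyte marker share between libraries (median share of marker UMIs in bin 2 10.01% with retinoic acid and 0.619% in vehicle). Within vehicle, Slc7a8 is at 40.9 CPM in bin 3 of vehicle and no higher than 41.4 after it.

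Cells were also clustered without the 9 transporters and the other transporter genes, and clusters were named from marker genes. In vehicle, enterocyte-like cells (1537 cells) held Slc5a1 at 1288 CPM, Slc2a2 at 407, Slc7a9 at 177 and Slc7a7 at 163. In stem-like cells (1236 cells) these genes were at 95.2, 1.29, 17.8 and 39.5 CPM. All 9 genes were higher in enterocyte-like than in stem-like cells in vehicle, with retinoic acid and without vitamin A. Slc7a8 had the smallest contrast in vehicle, at 40.1 against 16.5 CPM. A further vehicle cluster of 1511 cells, led by Rbp7 and Clec2e and left unnamed, had Slc6a19 at 51.8 CPM, Slc7a8 at 36.6 and Slc7a9 at 129 but Slc2a2 at only 63.5. The difference between classes was not tested, since cells are not replicates.

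Within clusters that vitamin A-free and vehicle cells shared, which genes were nearest to vehicle depended on the cluster. In the enterocyte-like cluster shared with vehicle (383 vitamin A-free and 1536 vehicle cells), the ratio to vehicle was 1.05 (1.02 to 1.08) for Slc5a1, 0.964 (0.888 to 1.05) for Slc2a5 and 0.871 (0.824 to 0.920) for Slc2a2. It was 0.543 (0.433 to 0.674) for Slc7a8, 0.626 (0.539 to 0.724) for Slc6a19 and 0.738 (0.673 to 0.807) for Slc7a9, while Slc3a1 was at 1.12 (1.01 to 1.23). In the shared unnamed cluster led by Rbp7 and Clec2e (832 vitamin A-free and 1511 vehicle cells), the ratio was 0.611 (0.521 to 0.715) for Slc2a5, 0.712 (0.627 to 0.806) for Slc2a2 and 0.877 (0.845 to 0.910) for Slc5a1. There it was 0.848 (0.725 to 0.991) for Slc7a8, 0.783 (0.719 to 0.852) for Slc7a9 and 0.659 (0.571 to 0.760) for Slc6a19. Slc6a19 and Slc7a9 were below vehicle in both of these clusters, as were Slc2a2 and Slc7a8. In the shared stem-like clusters and the one with goblet and Paneth genes, the intervals of these genes spanned no difference. In 1 stem-like cluster, for example, the ratio was 1.19 (0.960 to 1.47) for Slc7a9. A further vitamin A-free cluster of 1209 cells, left unnamed and nearly absent from vehicle (50 cells), had Slc6a19 at 86.5 CPM and Slc7a8 at 46.5, above the 77.7 and 40.1 CPM of the vehicle enterocyte-like cells.

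With retinoic acid, the enterocyte-like cells (3031 cells) lay in other clusters than those of vehicle. Scaled by total UMIs, their levels were close to the vehicle class for Slc2a2 (407 CPM in both) and Slc5a1 (1386 against 1288). They were higher for Slc15a1 (23.6 against 7.45), Slc3a1 (144 against 104) and Slc7a7 (217 against 163). TMM factors, which raise retinoic acid levels relative to vehicle, were not applied to the classes. A cluster of 1463 retinoic acid cells led by Fabp6, left unnamed, had lower levels, with Slc5a1 at 632 CPM, Slc2a2 at 246 and Slc15a1 at 3.01.

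No enterocyte-like cluster was found with the RXR antagonist. Regenerative-like cells there (1838 cells) had Slc5a1 at 7.62 CPM, Slc3a1 at 2.90 and Slc7a7 at 78.5. An unnamed cluster of 1457 cells, led by Nupr1 and Dmbt1, had more: Slc5a1 at 64.1 CPM, Slc3a1 at 19.1 and Slc7a7 at 100. Slc7a7 was also at 62.9 to 69.3 CPM in the cells with goblet and Paneth genes of all 6 libraries, where Slc15a1 did not exceed 0.897 CPM and Slc6a19 did not exceed 2.69.

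**Figure D4:**
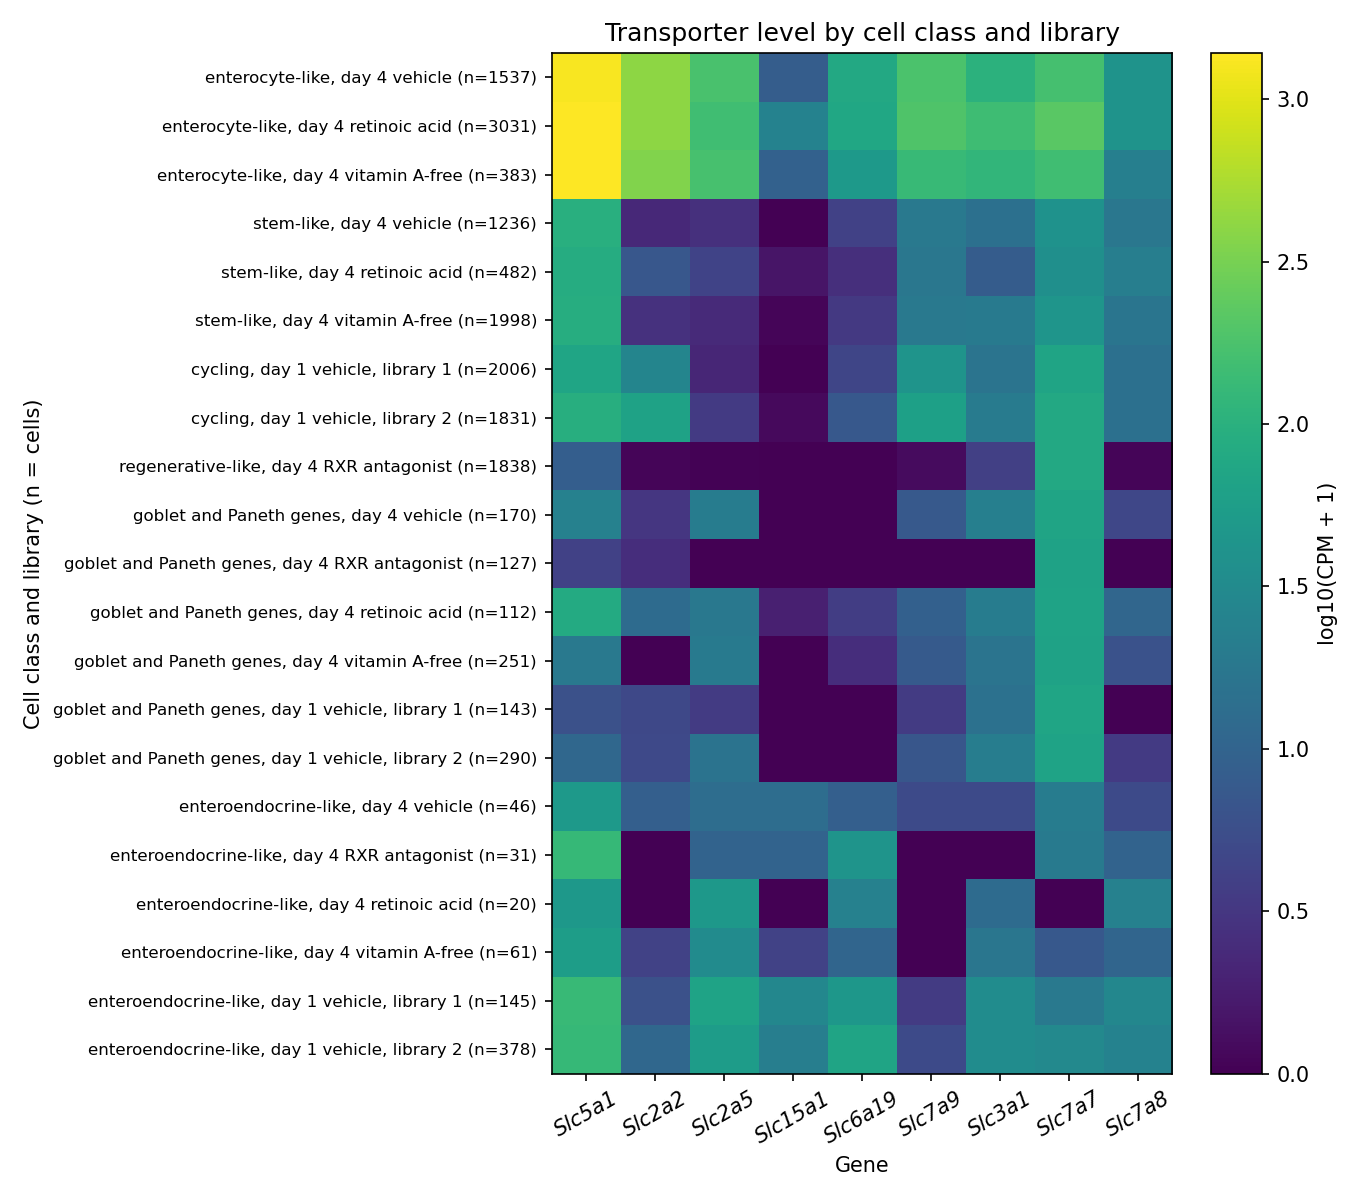
Level of each transporter by named cell class and library, as log10(CPM + 1), with the number of cells in each row. Enterocyte-like rows are the brightest, Slc7a7 is visible in nearly every row, and the day-1 enteroendocrine-like rows show Slc15a1 at 27.8 and 20.99 CPM.

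Enteroendocrine-like cells, the hormone-making cells named from genes such as Chga, Chgb and Cck, held a share of Slc15a1, Slc2a5 and Slc6a19 UMIs at day 1 well above their share of the RNA. They were 145 cells in the first day-1 library and 378 in the second, with 0.632% and 2.49% of all UMIs. They held 11 of 20 Slc15a1 UMIs (55.0%) in the first and 31 of 74 (41.9%) in the second. For Slc2a5 they held 18.7% and 19.8% of UMIs, and for Slc6a19 6.29% and 15.6%. For Slc5a1 they held 1.01% and 2.45%, for Slc3a1 1.16% and 3.20%, and for Slc7a8 1.23% and 4.197%. Slc2a2, Slc7a9 and Slc7a7 were below the share of RNA, with Slc2a2 at 5.06 and 10.2 CPM and Slc7a9 at 2.53 and 4.06 CPM in these cells.

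A Slc15a1 UMI was seen in 9 of 145 (6.21%, exact interval 2.88 to 11.5) and 27 of 378 (7.14%, 4.76 to 10.2) enteroendocrine-like cells at day 1. The cells with goblet and Paneth genes, which are not known for peptide uptake, had 0 of 143 and 0 of 290, which allows shares of cells with a UMI of up to 2.10% and 1.03%. These limits take 3 cells as the most that a count of 0 allows, and are not exact intervals. The enteroendocrine-like cells were the shallower class, with medians of 2435 and 3530 UMIs against 5048 and 6705.5. Without enteroendocrine-like cells, an alternative chosen after seeing the data, Slc15a1 was at 2.97 CPM in day-4 vehicle and at 0.145 and 0.743 at day 1, against 3.02, 0.320 and 1.25 with them. The number of transporters called 2-fold higher at day 4 was 5 with and without these cells. With the RXR antagonist, 31 enteroendocrine-like cells held 9 of the library's 11 Slc6a19 UMIs, so the remaining cells had 2.

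The share of cells with at least 1 UMI was compared after thinning cells to 5000 UMIs. Shallower cells were left out, numbering 352 in day-4 vehicle, 228 with the RXR antagonist, 288 with retinoic acid, 182 without vitamin A, and 512 and 604 at day 1. Slc5a1 was seen in 74.7% of vehicle cells, 13.7% with the RXR antagonist, 86.7% with retinoic acid and 63.0% without vitamin A, and in 30.2% and 35.5% at day 1. Over all kept cells and without thinning these shares were 83.7%, 26.0%, 91.8%, 74.4%, 50.1% and 53.1%. In the cells with goblet and Paneth genes, taken as background, the thinned share in the same order was 7.79%, 0.943%, 19.8%, 6.22%, 1.37% and 4.21%, below the whole library in each case. For Slc7a7 the thinned shares were 39.9%, 33.7%, 55.4%, 33.0%, 27.9% and 33.6%, against 26.0%, 21.7%, 30.2%, 29.2%, 30.1% and 27.1% in the goblet and Paneth cells. In the first day-1 library Slc7a7 was therefore not above this background. In 2 further libraries the exact intervals of the whole library and the goblet and Paneth cells overlapped. They were 31.6% to 34.4% and 23.1% to 35.9% without vitamin A, and 32.2% to 35.0% and 21.3% to 33.6% in the second day-1 library. For Slc7a7 these cells are not an empty background, since 21.7% to 30.2% of them held a UMI. Slc15a1 was seen in 1.41% of vehicle cells and 6.27% of retinoic acid cells after thinning.

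Genes with the most similar pattern were found by the root mean square difference of centred log2(CPM + 5) over the 6 libraries among 8829 genes. For Slc5a1 the closest were Enpep (0.102), an aminopeptidase, Slc39a5 (0.169), a zinc carrier, and Fbp1 (0.247). For Slc2a2 they were Slc26a6, Alpi and Sult1b1, at 0.266 to 0.377, and for Slc2a5 Enpep, Fbp1 and the trehalase Treh, at 0.250 to 0.269. Slc15a1 was closest to Sema6a (0.0873), Proz (0.0921) and Apoa2 (0.119), all low in these libraries. Slc6a19 was closest to Tkfc, Smim24 and Dpyd, at 0.137 to 0.151, and Slc7a9 to Abcg5, Ms4a18 and Clca4b, at 0.215 to 0.274. Slc3a1 was closest to Prap1 (0.0916), Slc43a2 and Pfkfb4, Slc7a7 to Trim12a (0.0882), Ctsz and Tom1l2, and Slc7a8 to Osbpl6 (0.0940) and Cyp2c65. Alpi and Prap1 also belong to the enterocyte markers. None of the 9 had another of the 9 among its 3 closest genes.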

How the data were processed

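Single-cell RNA was measured in 6 libraries of mouse intestinal organoids. The deposited values are whole-number UMI counts per gene and cell. Per the submitters' processing notes, bcl2fastq 2.17, Cell Ranger 3.1.0 and the build GRCm38 were used; further steps are not given in the sources used here. Libraries had 47254884 to 62512096 UMIs, which sets the counting intervals.

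The cell filter (minimum 500 genes and 1000 UMIs, maximum 20% mitochondrial) removed 0 barcodes. Scrublet's own threshold marked as few as 0 cells in a library, so the cells with the highest doublet scores were removed at 0.8% per 1000 barcodes (2.86% to 4.47% of barcodes). UMI counts were summed per library. Levels are CPM with exact Poisson intervals, and ratios have exact binomial intervals. The day comparison used edgeR 4.0.16 (R 4.3.3) with TMM, and DESeq2 1.42.0 was an alternative; the edgeR script was tested on simulated data. Clusters were made with scanpy 1.11.5 and Leiden at resolution 1, on 2000 variable genes without the transporters and 30 principal components. A cluster was named from its leading markers, and one led by markers of 2 types carries both names.

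Named genes were the 9 transporters, up to 3 genes per list and comparison with the largest absolute log2 ratio, the transporters' partners, and the 3 genes closest to each transporter. The 7 lists were partners and anchors, other sugar, other amino acid and other peptide carriers, ion transport, brush-border digestion, and fructose and glucose use. The members and lists were chosen with earlier results of these data known. Of the gene IDs, 54587 of 55335 matched GENCODE M21. Promoter sequences are from RefSeq (GRCm38.p6), and all 9 genes matched. Alternatives changed the scaling, pseudocount, floor, threshold, doublet removal, cell weights, clustering, thinning depth and ordering, and left out each day-1 library. Some genes that these rules name are not reported here. Protein sequences were not used here.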

Additional observations from a re-analysis of the deposited data

How the results depend on the processing

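All 268 alternative log2 ratios of the 42 transporter ratios kept their sign. The number of transporters 2-fold higher with retinoic acid was 1 as reported and 4 with TMM factors, 4 with DESeq2 size factors and 4 at a 1.5-fold threshold. TMM and DESeq2 factors give less weight to the very abundant genes of the retinoic acid library. At a 1.5-fold threshold 2 transporters were lower without vitamin A instead of 0. The share of all genes reaching 1.5-fold was not computed, so neither 1.5-fold count can be set against it. Leaving out 1 day-1 library gave 4 (without the first) to 6 (without the second) transporters 2-fold higher at day 4, against 5. Shares over all genes were not computed with 1 day-1 library left out, nor for the alternative day tests below. These alternative counts can therefore not be set against such a share. The number passing the day test was 7 with edgeR, 8 with the DESeq2 Wald test, 9 with DESeq2 size factors in edgeR, 8 with doublets kept and 5 with no filter on low counts. The edgeR adjusted p of Slc2a2 was 0.0177 with DESeq2 size factors and 0.0489 with doublets kept. For Slc15a1 it was 0.0242 with DESeq2 size factors, and the DESeq2 Wald test also gave 0.0242. With no filter on low counts, Slc7a9 had an edgeR adjusted p of 0.0568 and Slc7a7 of 0.0623; more genes were then tested. At Leiden resolution 0.5 vehicle and vitamin A-free had no enterocyte-like cluster, so that contrast had no value there. No paired analysis was possible because the groups compared share fewer than 2 replicate numbers. Genes with under 20 UMIs in a library, such as Slc2a2 and Slc2a5 with the RXR antagonist, have wide counting intervals, and 1 library per day-4 treatment leaves variation between cultures unmeasured.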
